A study of Argopecten irradians with 2 samples.

Results

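The nuclear-encoded subunits and assembly factors of the respiratory chain were examined in the gills of the bay scallop, Argopecten irradians, a bivalve whose gill is its site of gas exchange. The members were the unigenes (assembled transcripts) whose Swiss-Prot hit was a nuclear-encoded subunit or assembly factor of complexes I to V or the alternative oxidase. Of 60308 unigenes, 90 matched by annotation, and 80 of them, which covered 67 proteins, had at least 10 reads over both libraries. The other 10 were left out. They had between 0.56 and 9 reads, and the best Nr hit was a primate sequence for 5 of them and a ciliate sequence for 3. Just outside the minimum lay Unigene3163_All, a fragment similar to COX6A1 with 9 reads and a primate best hit. Just inside it lay Unigene26500_All, a 308 bp fragment similar to ATP5B with 17 reads and also a primate best hit.

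The control library was made from gills of scallops kept with the DMSO solvent (0 mg/L palmitoleic acid, PA), and the other library from gills exposed to 80 mg/L PA, both for 48 h. PA is a monounsaturated fatty acid. The comparison asked which transcripts differed in the gill after the exposure. The tissue was pooled, the labels naming 18 scallops per pool and the methods 3 replicate pools of 6, and each condition had 1 library. No difference given here therefore has a replicate check.

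The respiratory chain sits in the inner mitochondrial membrane. Complex I takes electrons from NADH and complex II from succinate, ubiquinone carries them to complex III, and cytochrome c carries them on to complex IV, where oxygen is reduced. Complexes I, III and IV pump protons, and complex V, the ATP synthase, uses the return flow to make ATP. The alternative oxidase (AOX), which molluscs have and vertebrates lack, passes electrons from ubiquinol straight to oxygen without pumping protons.

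Depth is given in estimated counts per unigene, here called reads. The control library held 10305482 and the PA library 10414545, and 38391 unigenes had at least 10 reads. A unigene was called when the Audic-Claverie test passed an FDR of 0.001 over all unigenes and the FPKM (reads scaled to unigene length and sequencing depth) differed at least 2-fold. Such a call compares the 2 libraries and not the conditions. Intervals in brackets are 95% intervals of the log2 fold change and cover counting error only. Fold changes were scaled to library totals. TMM scaling, which lines up the bulk of unigenes instead, lowered every log2 fold change by 0.245 and moved the median of all unigenes with at least 10 reads from 0.21 to -0.03.

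The markers of gill ciliated epithelium (dyneins, tektins, radial spoke proteins and the like) differed between the libraries. Of 82 such unigenes, 24 were called higher in PA and 0 lower, their median log2 fold change was 1.41 (1.17 with TMM scaling), and their summed FPKM was 444 in control and 961 in PA, with 1 of them at 0 reads in the control library. Of 46 muscle marker unigenes, 10 were called higher and 9 lower, and their summed FPKM was 573 and 531. Over all unigenes with at least 10 reads, 13.3% were called higher and 10.7% lower. The 16 digestive gland markers summed to 47.4 and 69.2 FPKM, and the single gonad marker, vitellogenin, had 3 and 17 reads. In these pooled gills, fewer cells of a type and less RNA per cell cannot be told apart. What part the ciliary difference has in the values of the respiratory chain was not tested.

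Most respiratory chain unigenes differed little between the libraries. Of the 80 members, 45 lay within 0.5 of no change on the log2 scale and 67 within 1. Over all 38391 unigenes with at least 10 reads, 11526 lay within 0.5 and 20633 within 1. With at least 300 reads, these counts were 40 and 56 of 60 members, and 2797 and 4706 of all 7339 unigenes. Only 6 members were called higher in PA (7.5%), where 13.3% of all unigenes with at least 10 reads were. Another 7 members were called lower (8.75%), where 10.7% of all were. Among unigenes with at least 300 reads, 18.4% were called higher and 17.5% lower over the whole table, and 3 and 1 of the 60 members with that many reads. The median log2 fold change of the members was 0.17, beside 0.21 for all unigenes. With TMM scaling it was -0.08, beside -0.03, and 2 members were called higher and 8 lower, where 9.97% and 14.0% of all unigenes were. The counting interval lay above 0 for 36 members, below 0 for 22 and held 0 for 22 with library totals. These counts became 22, 34 and 24 with TMM scaling. The same counts were not made over all unigenes, so they do not set the members apart. Counting intervals narrow with more reads, and the median control level was 58.6 FPKM for the members and 3.12 FPKM for all unigenes with at least 10 reads.

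The members took 65411 control reads and 78506 PA reads, that is 0.635% and 0.754% of each total. ATP5B alone (Unigene1736_All) supplied 4788 of the control reads and 9964 of the PA reads. The ratio of the members' shares was 0.25 on the log2 scale. The transcripts of the mitochondrial genome, which encodes the remaining subunits of complexes I, III, IV and V, stood close by, with 19.5% of the reads in control and 22.9% in PA, a log2 ratio of 0.23. Among the 16 unigenes of that genome, Unigene629_All, annotated as ND1 of complex I, took 14.4% of all reads in control and 16.6% in PA (log2 ratio 0.21). Unigene13011_All, annotated as COI of complex IV, took 4.45% and 5.58% (0.33), and Unigene9103_All, annotated as ND5, 0.680% and 0.722% (0.09). The ratio of 0.23 thus rests mostly on Unigene629_All and Unigene13011_All. Both ratios, 0.25 and 0.23, are for library totals, and the TMM shift of -0.245 is about as large as either. Subtracting the mitochondrial genome from the totals raised every log2 fold change by 0.06.

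**Figure D1:**
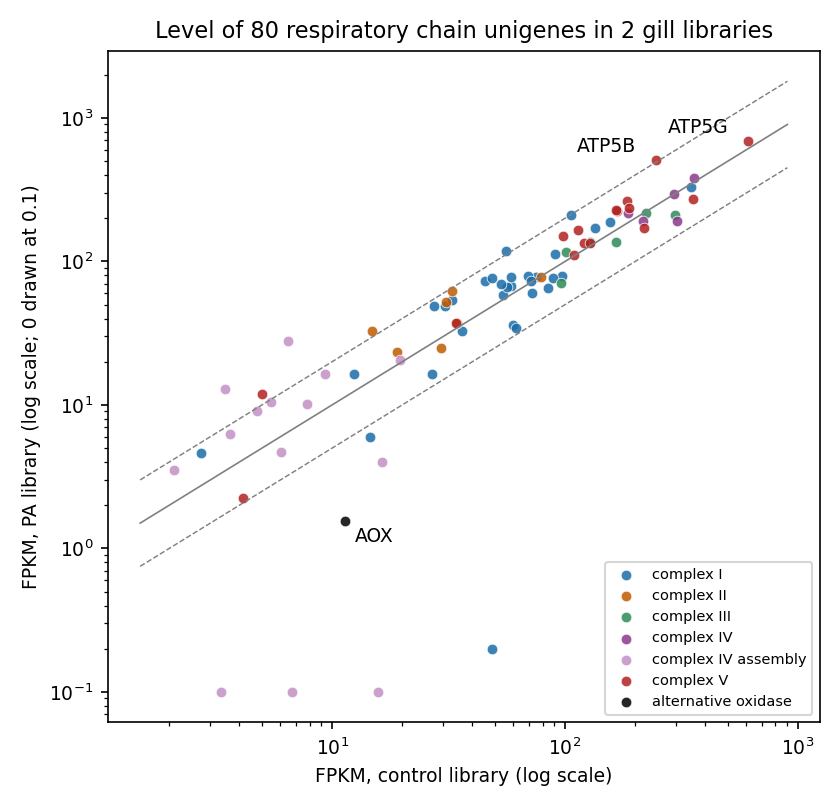
FPKM of the 80 members in the control library (x axis) and the PA library (y axis), both on log scales, with 1 point per unigene coloured by complex; the solid line marks equal levels and the dashed lines a 2-fold difference. Most points follow the solid line, ATP5B rises to second place behind ATP5G in PA, AOX lies below the lower dashed line, and the 3 contigs with 0 reads in PA are drawn at 0.1.

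The levels spanned from 2.09 to 607 FPKM in the control library. ATP5G, the membrane ring subunit c of the ATP synthase (Unigene1613_All), was highest in both libraries, at 607 FPKM in control and 687 FPKM in PA. COX6B1 of complex IV followed in control at 358 FPKM and had 382 FPKM in PA. Per unigene, the median transcript level was higher for complexes III, IV and V than for complexes I and II in both libraries. The median level in control was 294 FPKM for complex IV, 147 FPKM for complexes III and V, 58.3 FPKM for complex I, 30.7 FPKM for complex II and 6.26 FPKM for the assembly factors of complex IV. In PA these medians were 218 FPKM for complex IV, 137 for complex III, 167 for complex V, 67.6 for complex I, 37.4 for complex II and 7.71 for the assembly factors of complex IV. The sets are not alike, since those of complexes I, II and V include assembly factors. SDHC and SDHD of complex II were each split over 2 contigs that count separately. Without its assembly factor, complex II had medians of 31.6 FPKM in control and 44.6 FPKM in PA.

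Complex I had 31 members, of which 1 was called higher and 2 lower, where 13.3% and 10.7% of all unigenes with at least 10 reads were. The median log2 fold change of complex I was 0.21 (-0.03 with TMM scaling), the same to 2 decimals as that of all unigenes. The 7 unigenes of core subunits, the conserved proteins that bind FMN, the iron-sulfur clusters and ubiquinone, had a median of 0.40 (0.15 with TMM scaling). NDUFV1, which binds NADH and FMN (Unigene16702_All), had 48.8 FPKM in control and 77.1 FPKM in PA, a log2 fold change of 0.66 [0.53, 0.78]. NDUFV2, its partner in the NADH-binding arm (Unigene10106_All), had 819 and 848 reads, and its interval held 0 (0.04 [-0.11, 0.18]). None of the core subunits assembled as a single contig passed the fold change threshold.

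The core subunit NDUFS7, which carries the last iron-sulfur cluster before ubiquinone, was assembled as a cluster of 2 contigs. CL3582.Contig2_All had 423 reads in control and 1.76 reads in PA and was called lower, with a log2 fold change of -7.93 [-10.8, -5.88]. CL3582.Contig1_All had 1093 reads in control and 2194 in PA, a log2 fold change of 0.99 [0.88, 1.10]. The whole cluster had 1516 reads in control and 2196 in PA, a log2 fold change of 0.52, and was not called. The reads of NDUFS7 thus lay almost wholly on 1 contig in PA and on both in control.

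The 20 unigenes of accessory subunits of complex I, which surround the core, spread to both sides. Their median was 0.15 with library totals, with 12 above 0 and 8 below, and -0.10 with TMM scaling, with 8 above and 12 below. NDUFB5, a membrane arm subunit and the complex I member with the most reads (Unigene1558_All), had 348 FPKM in control and 328 FPKM in PA. Its log2 fold change was -0.09 [-0.16, -0.01]. NDUFB10, a subunit of the intermembrane space side of the membrane arm (Unigene7997_All), had 480 reads (55.8 FPKM) in control and 1026 reads (118 FPKM) in PA and was called higher, with a log2 fold change of 1.08 [0.92, 1.24]. With TMM scaling it was 0.84 and no longer called. At the low end stood NDUFA7 (Unigene27801_All), a subunit of the peripheral arm, with 435 reads in control and 246 in PA, a log2 fold change of -0.84 [-1.07, -0.61] that was not called. It was called lower with TMM scaling, at -1.08. A second NDUFA7 unigene (Unigene21366_All) had 480 reads in control and 423 in PA, so that the pair did not differ by the same amount.

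The 4 assembly factors of complex I differed in direction from each other, 2 above 0 and 2 below. NDUFAF4, which works with NDUFAF3 in building the ubiquinone-binding part of the complex (Unigene3724_All), had 128 reads (14.6 FPKM) in control and 53 reads (5.97 FPKM) in PA and was called lower, with a log2 fold change of -1.29 [-1.78, -0.81]. It was still called with TMM scaling, at -1.53, but not by the edgeR exact test at a coefficient of variation assumed to be 0.2. NDUFAF3 (Unigene18677_All) had 112 reads in control and 149 in PA, a log2 fold change of 0.40 [0.03, 0.76]. NDUFAF7, a methyltransferase of the mitochondrial matrix (Unigene3860_All), had 392 and 243 reads and was not called, at -0.70 [-0.94, -0.47]. NDUFAF5, which modifies NDUFS7 (Unigene13437_All), had 33 and 56 reads and was not called, at 0.75 [0.10, 1.41].

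Complex II, succinate dehydrogenase, belongs to the citric acid cycle as well as to the chain. Its 7 members had a median log2 fold change of 0.29 (0.04 with TMM scaling). Of them, 1 was called higher and 0 lower, where 13.3% and 10.7% of all unigenes with at least 10 reads were. The flavoprotein SDHA, which oxidises succinate (Unigene24182_All), had 764 reads (32.6 FPKM) in control and 1463 reads (61.9 FPKM) in PA. Its log2 fold change of 0.92 [0.79, 1.05] stopped short of the 2-fold threshold. The iron-sulfur subunit SDHB (Unigene12172_All), which receives electrons from SDHA, had 78.7 FPKM in control and 78.4 FPKM in PA, and its log2 fold change of 0.00 [-0.12, 0.11] held no change. The intervals of these partners, which bind each other in the finished enzyme, did not overlap.

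The membrane anchors of complex II were each assembled as 2 contigs. For SDHD, CL3449.Contig1_All had 133 reads in control and 298 in PA and was called higher (1.16 [0.85, 1.45], 0.91 with TMM scaling and then not called), while CL3449.Contig2_All had 256 and 218 reads (-0.25 [-0.51, 0.02]). Summed, SDHD had 389 reads in control and 516 in PA, a log2 fold change of 0.39, and was not called. For SDHC, CL5045.Contig1_All had 365 and 400 reads (0.12 [-0.09, 0.33]) and CL5045.Contig2_All 277 and 472 reads (0.76 [0.54, 0.97]). Summed, SDHC came to 642 reads in control and 872 in PA, a log2 fold change of 0.43. SDHAF2, which inserts FAD into SDHA (Unigene10640_All), had 104 and 128 reads, and its interval held 0 (0.29 [-0.10, 0.67]).

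In complex III, the cytochrome b-c1 complex, none of the 6 members was called, where 13.3% of all unigenes with at least 10 reads were called higher and 10.7% lower. The median log2 fold change of the 6 members was -0.16, with 2 above 0 and 4 below, and -0.41 with TMM scaling, with all 6 below. The Rieske iron-sulfur protein UQCRFS1 (Unigene5785_All), which takes electrons from ubiquinol, had 223 FPKM in control and 217 FPKM in PA, a log2 fold change of -0.04 [-0.13, 0.05]. The core protein UQCRC2 (Unigene12380_All) had 129 FPKM in control and 137 FPKM in PA, a log2 fold change of 0.10 [0.01, 0.18]. The small subunit UQCRQ (Unigene14743_All) lay lowest, with 1087 reads in control and 779 in PA, a log2 fold change of -0.49 [-0.63, -0.36]. The hinge protein UQCRH (Unigene6371_All), which contacts cytochrome c1, had 485 reads in control and 359 in PA, at -0.45 [-0.65, -0.25].

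Complex IV, cytochrome c oxidase, also had no called subunit among 5 members of 4 proteins, beside the same shares of 13.3% and 10.7% of all unigenes. The median of the 5 members was -0.01 with library totals and -0.25 with TMM scaling. Subunit 4 (Unigene18692_All) had 2528 reads in control and 2541 in PA, a log2 fold change of -0.01 [-0.09, 0.07]. Its Swiss-Prot hit was isoform 2 (COX4I2, E-value 1e-10), and which isoform it is was not tested. COX5A (Unigene6360_All) had 186 FPKM in control and 218 FPKM in PA, a log2 fold change of 0.22 [0.12, 0.32]. Both contigs of COX6A1 had fewer reads in PA. CL4287.Contig1_All had 1669 reads in control and 1067 in PA (-0.66 [-0.77, -0.55]), CL4287.Contig2_All had 1148 and 1022 (-0.18 [-0.31, -0.06]), and the cluster summed to 2817 and 2089 reads, a log2 fold change of -0.45 that was not called.

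In complex V, 2 of 16 members were called higher (12.5%) and 0 lower, where 13.3% and 10.7% of all unigenes with at least 10 reads were. The median log2 fold change of complex V was 0.25 with library totals and 0.01 with TMM scaling. The catalytic F1 head and the membrane part with its stalk differed in position. Leaving aside the fragment with a primate hit, the 5 F1 subunits lay between 0.43 and 1.04, and between 0.19 and 0.80 with TMM scaling, so that all of them stayed above 0 under both. The 8 unigenes of the Fo part and stalk had a median of 0.12, with 6 above 0 and 2 below, and -0.13 with TMM scaling, with 2 above and 6 below. The reads of the F1 unigenes summed to 11894 in control and 19848 in PA, a log2 ratio of 0.72, of which ATP5B supplied 4788 and 9964, and the other 4 subunits together had 7095 and 9878, a log2 ratio of 0.46. Those of the Fo part and stalk summed to 15764 and 17221, a log2 ratio of 0.11.

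ATP5B, the catalytic beta subunit (Unigene1736_All), was the most abundant member by reads in PA, with 4788 reads (247 FPKM) in control and 9964 reads (508 FPKM) in PA. It was called higher, with a log2 fold change of 1.04 [0.99, 1.09], and it moved from rank 8 to rank 2 among the members by FPKM. With TMM scaling its log2 fold change was 0.80 and it was not called. ATP5A1, the alpha subunit that alternates with beta in the head (CL3126.Contig1_All), had 3450 reads in control and 4703 in PA, a log2 fold change of 0.43 [0.37, 0.50]. The intervals of alpha and beta did not overlap. The gamma subunit ATP5C1, the rotating shaft (Unigene12253_All), lay near alpha, at 2052 reads in control and 2938 in PA (0.50 [0.42, 0.58]). The delta and epsilon subunits, ATP5D and ATP5E, which sit at the foot of the shaft, had log2 fold changes of 0.45 [0.34, 0.56] and 0.53 [0.36, 0.70].

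Among the Fo and stalk subunits, ATP5G had 6316 reads in control and 7213 in PA, a log2 fold change of 0.18 [0.13, 0.23]. ATP5H, the stalk subunit d (Unigene20887_All), lay highest at 0.63 [0.51, 0.74], with 98.2 FPKM in control and 152 FPKM in PA. Coupling factor 6, ATP5J (Unigene2129_All), which also belongs to the stalk, had 218 FPKM in control and 170 FPKM in PA, a log2 fold change of -0.35 [-0.48, -0.24]. Stalk subunits thus lay on both sides of no change. Subunit f, ATP5J2 (Unigene14923_All), was lowest, with 355 FPKM in control and 274 FPKM in PA (-0.37 [-0.48, -0.27]).

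Of the chaperones that assemble F1, ATPAF1, which binds the beta subunit (Unigene10094_All), had 61 reads (5.01 FPKM) in control and 146 reads (11.9 FPKM) in PA and was called higher, at 1.24 [0.80, 1.70]. With TMM scaling it fell just short of the 2-fold threshold. ATPAF2, which binds the alpha subunit (Unigene1522_All), had 424 and 472 reads, and its interval held 0 (0.14 [-0.05, 0.33]). The pair thus stood in the same order as ATP5B and ATP5A1, which was seen after the values were known. Neither ATPAF1 nor ATP5B was called with TMM scaling or by the edgeR exact test at an assumed coefficient of variation of 0.2. A link between the pairs was not tested.

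**Figure D2:**
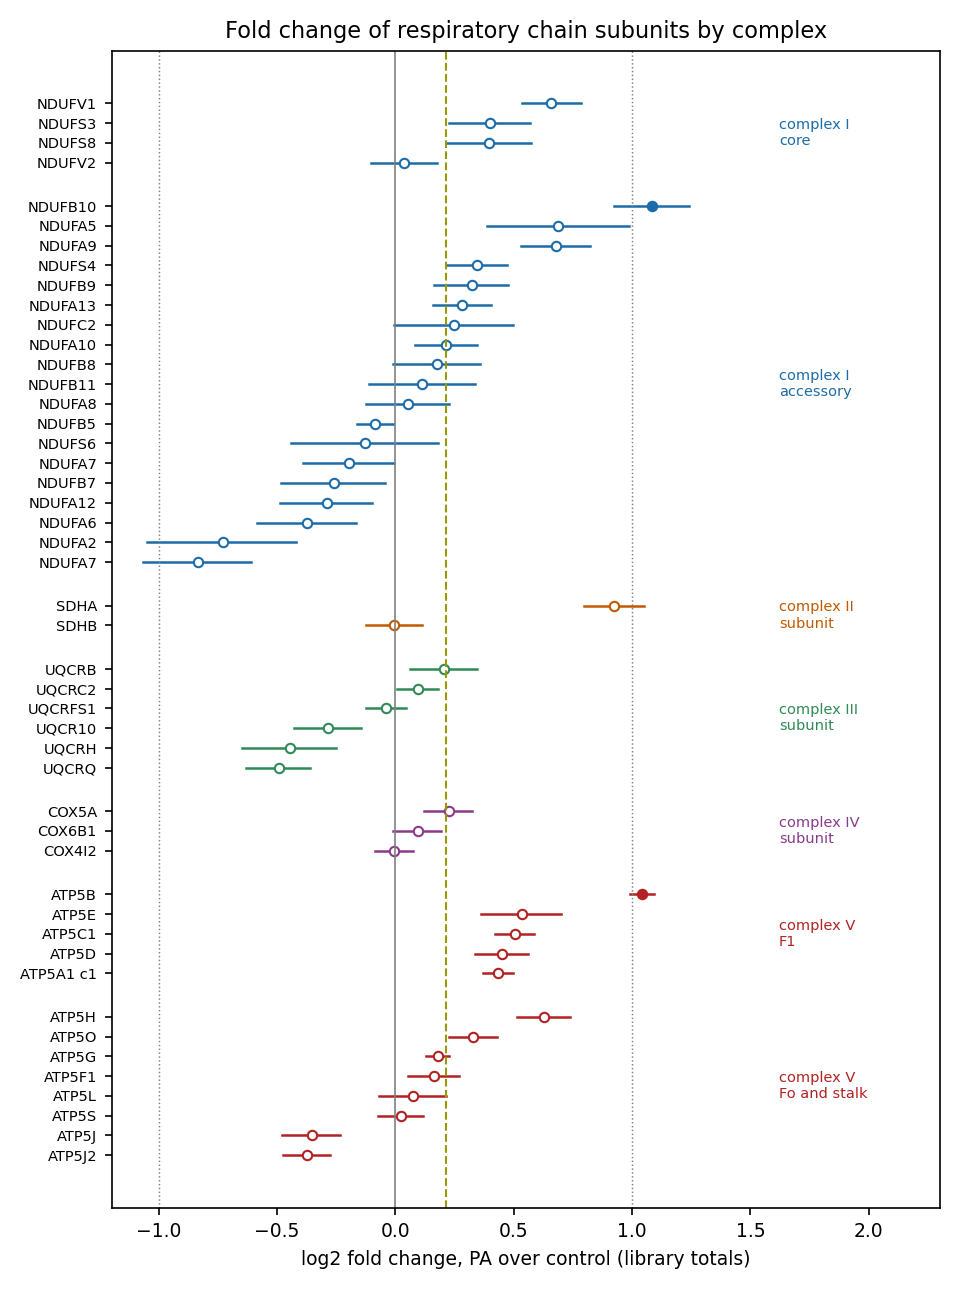
Log2 fold change of PA over control (x axis, library totals) for subunits of each complex, with 1 row per unigene; points are estimates, bars are 95% counting intervals from 1 library per condition, filled points are called, dotted lines mark a 2-fold difference and the dashed line is the median of all unigenes with at least 10 reads (0.21). Subunits assembled in several contigs are left out except ATP5A1 contig 1; the 5 F1 subunits lie between 0.43 and 1.04, and NDUFB10 and ATP5B are the filled points.

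The alternative oxidase was the member that differed most among those assembled as a single contig. Its 1 unigene (Unigene10830_All, 2103 bp), whose best Nr hit was the AOX of the oyster Crassostrea gigas, had 241 reads in control and 33 in PA. Its level was 11.4 FPKM in control and 1.54 FPKM in PA, 7.37-fold lower. The log2 fold change was -2.88 [-3.46, -2.35], and -3.13 with TMM scaling. AOX was called lower at an assumed coefficient of variation of 0.2 and was not called at 0.4. Its rank among the members fell from 66 to 76 of 80.

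The assembly factors of complex IV, which insert heme and copper into the enzyme, gave 2 calls higher and 4 lower among 14 unigenes, all 6 calls on contigs of clusters. Their median log2 fold change was 0.56 (0.32 with TMM scaling). Over all unigenes with at least 10 reads, 13.3% were called higher and 10.7% lower. Of all contigs of clusters, 39.2% were called in either direction. COX11 delivers copper to the catalytic subunit of the oxidase. CL550.Contig1_All had 45.0 reads in control and 168 in PA and was called higher (1.89 [1.40, 2.39]), while CL550.Contig2_All had 85.3 reads in control and 0 in PA and was called lower, at least 28.7-fold against a floor of 3 reads. Summed, this cluster had 130 reads in control and 168 in PA, a log2 fold change of 0.35. In the second COX11 cluster, CL1329.Contig4_All had 26.3 reads in control and 0 in PA, at least 8.85-fold lower, while the cluster as a whole held 91.7 reads in control and 65.2 in PA, at -0.51 on the log2 scale.

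The small assembly factor COA5 split in the same way. CL969.Contig1_All had 28.5 reads in control and 123 in PA and was called higher (2.10 [1.52, 2.77]). CL969.Contig3_All had 110 reads in control and 27.1 in PA and was called lower (-2.04 [-2.71, -1.42]), and CL969.Contig2_All lay between them with 61.3 and 109 reads. Summed, COA5 had 200 reads in control and 259 in PA, a log2 fold change of 0.36, and was not called. COX19, a copper-binding protein of the intermembrane space, had 65.2 reads in control and 0 in PA on CL4509.Contig1_All, at least 22.0-fold lower, and 108 and 115 reads on CL4509.Contig2_All. Its cluster summed to 173 and 115 reads, a log2 fold change of -0.60 that was not called. COX15, which makes heme a and was assembled as a single contig (Unigene3781_All), had 104 reads in control and 202 in PA, a log2 fold change of 0.94 [0.59, 1.30] that stayed under the threshold.

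On contigs that share an assembly cluster, the estimated counts divide the reads of similar sequences and the value of a single contig is uncertain. Of the 20 members that were contigs of clusters, 8 were called in either direction, where 39.2% of all such contigs were. Of the 60 members assembled as a single contig, 5 were called, which were ATP5B, NDUFB10, ATPAF1, AOX and NDUFAF4, where 17.5% of all such unigenes were. When the reads of each cluster were summed, none of the 10 clusters was called by the Audic-Claverie rule. Over the resulting 70 clusters and single contigs, 3 were called higher, where 10.9% of all 32102 were, and 2 lower, where 7.79% of all were. The median was 0.21, beside 0.23 for all. Whether the contigs of a cluster are alleles of the pooled animals, splice forms or separate genes was not tested.

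**Figure D3:**
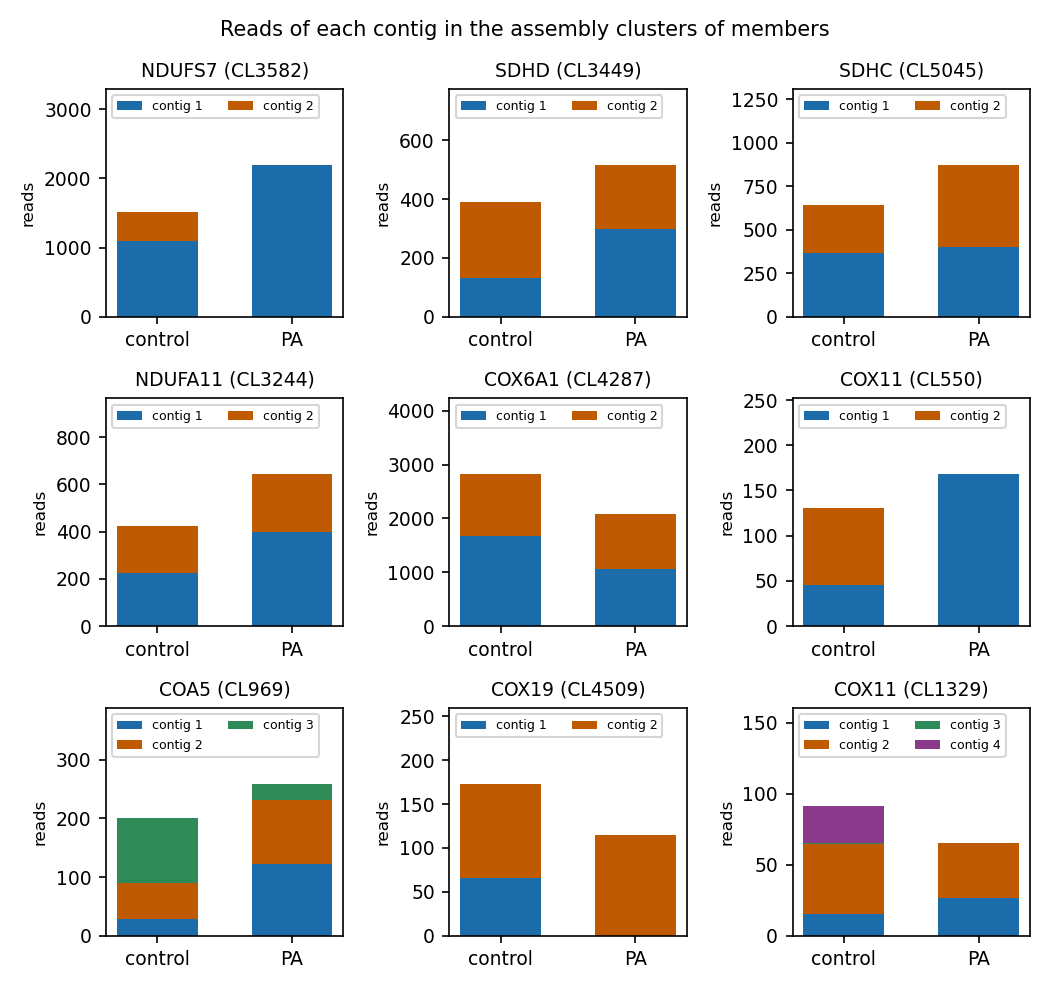
Reads (y axis, starting at 0, own scale in each panel) in the control and the PA library for 9 of the 10 assembly clusters that hold members, stacked by contig. Each cluster total differs less than the most different contig of its cluster, as a sum must. Some contigs differ less than their total, such as COX19 contig 2 (log2 fold change 0.08, cluster -0.60). Contig 2 of NDUFS7 goes from 423 reads to 1.76 while the cluster goes from 1516 to 2196. Contig 2 of COX11 in CL550 goes from 85.3 reads to 0 while the cluster goes from 130 to 168.

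Among the members, longer unigenes tended to have higher fold changes. Their median log2 fold change was 0.05 for 35 unigenes up to 750 bp, 0.28 for 34 of 751 to 1500 bp and 0.43 for 11 over 1500 bp. With TMM scaling these medians were -0.19, 0.03 and 0.19. Over all unigenes with at least 10 reads the order was the opposite, with medians of 0.25, 0.21 and 0.18 under library totals. Among the 50 single-contig members with at least 300 reads, the medians were -0.04, 0.21 and 0.66, and Spearman's rho between length and log2 fold change was 0.45, given as a description, since all points come from the same pair of libraries. Without the 9 longest, over 1500 bp, rho was 0.33, and without the 24 up to 750 bp it was 0.28. Among all 7339 unigenes with at least 300 reads, the medians of the same length classes were -0.23, -0.03 and 0.07, and rho was 0.05. As examples, the short subunits of complex III (UQCRQ, UQCRH, UQCR10) and of the Fo part and stalk (ATP5J, ATP5J2) stand at the low end of this order and SDHA, ATP5B and NDUFV1 at the high end. Others do not follow it, such as the short ATP5E (468 bp, 0.53) and ATP5D (695 bp, 0.45). The same holds for the long SDHB (1504 bp, -0.004), ATP5S (1609 bp, 0.02) and UQCRC2 (1617 bp, 0.10). AOX (2103 bp, -2.88) had 274 reads and is not among the 50. The part that length has in the differences between complexes was not tested.

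**Figure D4:**
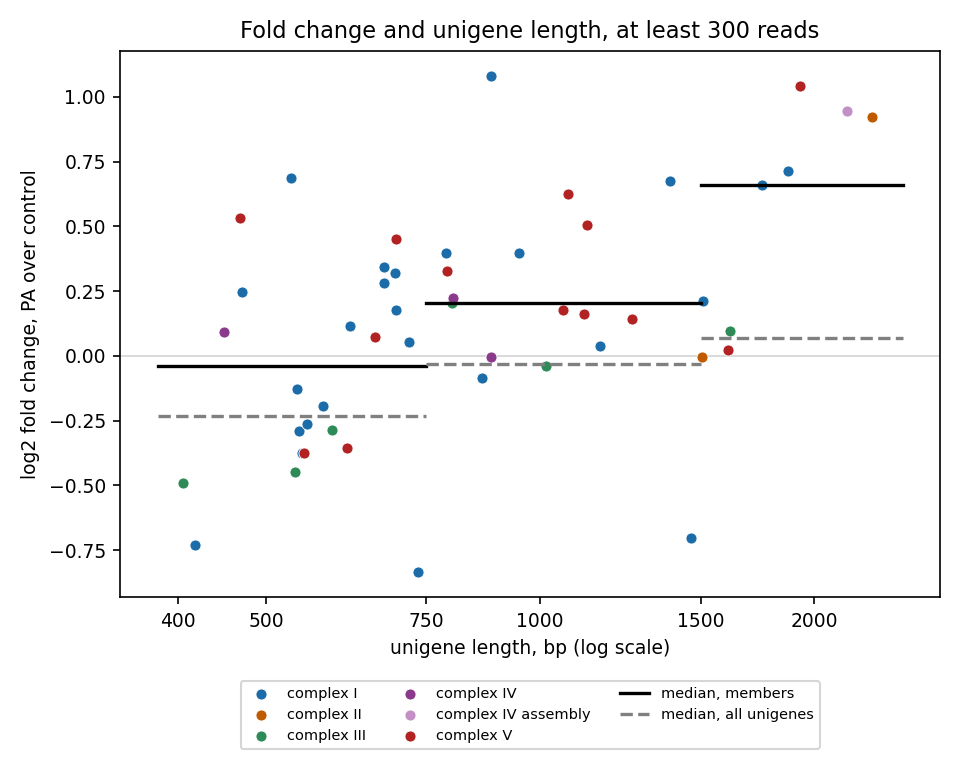
Log2 fold change of PA over control (y axis, library totals) against unigene length in bp (x axis, log scale) for the 50 single-contig members with at least 300 reads, coloured by complex; solid lines are the medians of these members in 3 length classes and dashed lines those of all 7339 unigenes with at least 300 reads. The members' medians go from -0.04 to 0.66 and those of all unigenes from -0.23 to 0.07.

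Of 36 unigenes of other genes that serve the chain, 1 was called higher and 4 lower, where 13.3% and 10.7% of all unigenes were. With TMM scaling 1 was called higher and 6 lower, where 9.97% and 14.0% of all were. The median log2 fold change of the list was 0.16 (-0.08 with TMM scaling). Cytochrome c, the carrier between complexes III and IV, stood out among them. Its most abundant unigene (Unigene12789_All) had 1778 reads (194 FPKM) in control and 712 reads (76.9 FPKM) in PA and was called lower, at -1.33 [-1.46, -1.21]. A second one (Unigene3071_All) had 954 and 757 reads and was not called, at -0.35 [-0.49, -0.21]. Over the 5 cytochrome c unigenes the summed FPKM was 338 in control and 191 in PA, and Unigene21637_All, with 20.7 reads in control and 0 in PA, was also called lower. Unigene640_All, of the same length (869 bp) and the same best hit species as Unigene21637_All, had 18.8 and 14 reads and was not called. Whether reads of a single sequence were divided between them was not tested. Unigene10479_All, with a primate best hit, had 8 and 17 reads and was not called, at 1.08 [-0.22, 2.49].

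The call higher was SCO1, a copper chaperone of complex IV (Unigene17527_All), with 32.0 reads in control and 101 in PA, at 1.65 [1.06, 2.26]. The remaining calls lower were contigs of clusters. Prohibitin-2, a scaffold of the inner membrane, had 765 reads in control and 12.5 in PA on CL2183.Contig1_All and 2444 and 1445 reads on CL2183.Contig2_All. Its cluster summed to 3209 and 1458 reads and was still called lower, at -1.15. COQ6 of ubiquinone synthesis had 53.6 and 0 reads on CL2023.Contig2_All and 82.5 and 112 reads on CL2023.Contig1_All, and its cluster was not called. The 3 unigenes of the electron transfer flavoprotein and its ubiquinone oxidoreductase, which bring electrons from fatty acid oxidation to ubiquinone, were not called and lay between 0.52 and 0.65, or 0.28 and 0.41 with TMM scaling. A further 3 subunits or carriers named otherwise in Swiss-Prot fell outside the member rule, and none was called. The ADP,ATP carrier (Unigene14265_All) had 11038 and 10899 reads (-0.03), cytochrome c1 of complex III 1821 and 2203 reads (0.26) and the 75 kDa subunit of complex I 1136 and 1320 reads (0.20).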

How the data were processed

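Reads were cleaned by the authors with SOAPnuke, assembled with Trinity and TGICL, mapped with Bowtie and quantified with RSEM. For both libraries the authors deposited expected counts, FPKM values and annotation per unigene. The table of the authors' own comparison, with fold changes, p-values and FDR, served only for its unigene lengths and annotation. Of the counts, 18.3% (control) and 16.7% (PA) were not whole, and they were rounded for the tests. Each library was mapped to its condition by its title.

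The log2 fold change was the ratio of FPKM, an FPKM of 0 being set to 0.01. The two-sided Audic-Claverie test, named in the study's methods, was adjusted by Benjamini-Hochberg over all 60308 unigenes. The 95% intervals are Clopper-Pearson limits for the PA share of a unigene's reads. A library with 0 reads was set to 3 reads for a bound. The depth of 1 library per condition limits precision to counting error, which holds no variation between animals. Contigs of a cluster share the CL number.

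Members, lists and groups were chosen with earlier results of these data known. Named were the 2 members with most reads in each group, the 2 called members with the largest fold change in each direction, every member of complex II and AOX, and the contigs of their clusters. No unigene matched the words ADP/ATP translocase, LRPPRC or MICOS. Further members named as examples of a group were picked after their values were seen. One member is not reported here by itself and is not drawn among the subunits.

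Alternatives were TMM factors, the median of ratios, totals without the mitochondrial genome, reads per total, a pseudocount of 1 FPKM, other minimums of reads (none, 50), clusters or proteins summed, animal best hits, a Swiss-Prot E-value of at most 1e-20, the edgeR exact test at an assumed coefficient of variation (BCV) of 0.2 and 0.4, and other thresholds. Python 3.11.15 (numpy 2.4.6, scipy 1.17.1, pandas 2.3.3, matplotlib 3.10.9) and R 4.3.3 (edgeR 4.0.16) were used. A table of 32407 reference genes matched 0 members' best hits and was not used.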

Additional observations from a re-analysis of the deposited data

How the results depend on the processing

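The median log2 fold change of the members, 0.17, changed sign to -0.076 with TMM factors and -0.050 with the median of ratios, and lay between 0.09 and 0.31 under the other 11 settings. The 6 calls higher became 2 with TMM factors, 3 with the median of ratios, 3 with clusters summed, 3 with proteins summed, 1 with the edgeR exact test at a BCV of 0.2, 0 at 0.4, and 16 at a fold change of 1.5. The 7 calls lower became 2 with clusters summed, 2 with proteins summed, 3 with Swiss-Prot E-values of at most 1e-20, 3 at a BCV of 0.4 and 11 at a fold change of 1.5. The 3 left at a BCV of 0.4 were contigs of NDUFS7, COX11 and COX19 with 0 or 1.76 reads in PA. Their summed clusters were not called, and no member assembled as a single contig was among them. In 2 settings chosen after seeing the data, single contigs gave 3 higher and 2 lower, and subunits without assembly factors and AOX 3 higher and 1 lower. The remaining settings gave 4 to 8 calls higher and 5 to 8 lower. TMM factors and the median of ratios shifted every log2 fold change, by -0.245 and -0.219, and a fold change of 1.5 is a lower threshold. Fewer features entered when contigs were summed or members left out. The cause of the other changes was not tested. No paired analysis was possible because each condition had 1 library and the labels give no replicate numbers. Leaving out a library was not possible either. Low depth limits the assembly factors, with a median of 6.74 FPKM in control, and AOX, with 33 reads in PA.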

Other observations

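Twin CX9C proteins related to the assembly factors above were looked at after their values were seen. CHCHD2, a mitochondrial protein of the intermembrane space (Unigene16546_All), had 3822 reads (429 FPKM) in the control library and 1292 reads (144 FPKM) in the PA library and was called lower, with a log2 fold change of -1.58 [-1.67, -1.49] and -1.82 with TMM scaling. A second unigene similar to CHCHD2 (Unigene4260_All), with a human best hit, had 31 and 33 reads and was not called. CHCHD7 (Unigene17100_All) had 60 and 208 reads and was called higher, at 1.78 [1.36, 2.22]. CHCHD3, a component of the cristae junctions (Unigene12240_All), had 53 and 74 reads and was not called.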
